A study of Mus musculus with 2 samples.

Results

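Cycling type 1 conventional dendritic cells (cDC1) of the mouse spleen are cells that carry transcripts of dividing cells together with those of the cDC1 lineage. They were chosen as droplets with at least 2 unique molecular identifiers (UMIs, 1 per captured transcript) of Mki67 and Top2a together, at least 2 of Xcr1 and Clec9a together, and none of the B cell gene Cd79a or the killer cell gene Nkg7. Of 9934 cells with at least 500 genes and at most 10% mitochondrial UMIs, 214 met this rule. Of these, 31 held at least 3 UMIs of Ccr7 or Fscn1, genes of mature dendritic cells, and are described apart as possible doublets, which left 183 cycling cDC1. They were set against 701 non-cycling cDC1, with at least 3 UMIs of Xcr1 and Clec9a together, none of Mki67 or Top2a, and the same limits on the other genes. The cells came from 2 droplet libraries of dendritic cells from the spleens of mice with the alleles Il7r-cre; Rosa26-lsl-tdTomato, which were naive, 7 to 9 weeks old and kept free of specific pathogens. L-cDC were the tdTomato-positive and M-cDC the tdTomato-negative cells of a sort that followed enrichment for CD11c, and both groups carried the same alleles. In these mice the Il7r gene drives Cre, so the red label stays on in any cell that has expressed Il7r itself or descends from one that has. The series asked how cDC1 and cDC2 of both origins differ in gene expression. With 1 library in each group there was no test between groups: intervals cover counting error only, and the number of mice behind a library is not given in the sources used here. The L-cDC library held 29 cycling and 157 non-cycling cDC1, and the M-cDC library 154 and 544.

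cDC1 sense dying cells through CLEC9A, answer the chemokine XCL1 through XCR1 and present antigen taken up from other cells to CD8 T cells, under control of the transcription factors IRF8 and BATF3. Most dendritic cells of tissues do not divide, but precursors from the bone marrow and some cDC in the spleen still go through the cell cycle. A dividing cell licenses its replication origins with the MCM helicase in G1, copies its DNA and makes histones in S phase, and builds the spindle and kinetochores in G2 and M phase. MKI67 coats mitotic chromosomes, and TOP2A untangles DNA before chromosomes part.

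The 183 cells carried the cDC1 profile well beyond the genes that chose them. Irf8 stood at 1526.8 CPM (UMIs per 1000000 of the summed UMIs of a class) in cycling cDC1 of L-cDC and 1677.8 CPM in those of M-cDC. Batf3 was at 257 and 294 CPM, Cd8a, the T cell coreceptor chain that splenic cDC1 display, at 238 and 168 CPM, and Tlr3, a sensor of double-stranded RNA, at 135 and 122 CPM in the same order of libraries. The 29 cDC1 markers outside the rule summed to 24639.2 CPM in cycling cDC1 of L-cDC and 23415.2 CPM in those of M-cDC. Cycling dendritic cells with no Xcr1 or Clec9a had 3121 and 3176.9 CPM. Most of the sum in cycling cDC1 was Cst3. It was at 18761.8 CPM in cycling cDC1 of L-cDC with more S phase than G2/M transcripts and at 17175.1 CPM in the others. In M-cDC the same groups had 16601.3 and 15855.8 CPM. The sum therefore describes mainly Cst3 and not all 29 markers alike. The marker genes the rule used were at 394 and 376 CPM for Mki67, 406 and 402 CPM for Top2a, 385 and 410 CPM for Xcr1, and 144 and 149 CPM for Clec9a. Per cell, Mki67 and Top2a had a median of 4 UMIs each in both libraries, and the highest cell held 67 of Mki67.

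Markers of other spleen cells were counted in the cycling cDC1, and many were at 0. Of 12 NK and T cell markers, 10 were at 0 in both libraries, among them Ncr1, Cd3e and Trac. Of 10 erythroid markers, 8 were at 0 in both libraries, among them the hemoglobin genes Hbb-bs and Hba-a1 and the factor Klf1, and the list summed to 22.2 CPM in cycling cDC1 of L-cDC and 25.5 CPM in those of M-cDC, against 10.9 and 7.53 CPM in non-cycling cDC1. The erythroid sum in cycling cDC1 came from Car2 and Tfrc. Of 10 monocyte and neutrophil markers, 8 were at 0, among them S100a8 and Csf3r, and the list summed to 130 and 149 CPM, against 263 and 284 CPM in non-cycling cDC1. Nearly all of that sum was Lyz2, at 119 and 142 CPM in cycling cDC1, against 254 and 276 CPM in non-cycling cDC1. A UMI of Lyz2 was in 20 of 29 cycling cDC1 of L-cDC and 102 of 154 of M-cDC. B cell markers outside the rule summed to 193 and 153 CPM, against 162 and 157 CPM in non-cycling cDC1. In that list the factor Pax5 was at 0 in both libraries, while Ms4a1, the B cell surface protein CD20, was at 19 CPM in cycling cDC1 of L-cDC (8 of 29 cells) and 7.52 CPM in those of M-cDC (15 of 154), against 8.91 and 8.86 CPM in non-cycling cDC1. The part of these transcripts in the results was not tested. Macrophage markers summed to 7.92 and 7.19 CPM, and C1qb and Spic were at 0. The 14 mature dendritic cell markers outside the rule summed to 294.6 and 253.3 CPM in cycling cDC1, against 452 and 338 CPM in non-cycling cDC1 and 16093.6 and 15955.8 CPM in mature cells. The mature cells here, 1901 of L-cDC and 2120 of M-cDC, held at least 3 UMIs of Ccr7 and at least 3 of Fscn1. They were chosen to hold no Mki67, Top2a, Xcr1, Clec9a, Cd79a or Nkg7. Markers of cDC2 summed to 629 and 622 CPM in cycling cDC1, against 538 and 630 CPM in non-cycling cDC1. A doublet caller, Scrublet, scored above 0.25 in 0 of 29 cycling cDC1 of L-cDC and 5 of 154 of M-cDC. In non-cycling cDC1 it did so in 4 of 157 and 12 of 544. Median scores were higher in cycling cDC1, at 0.098 and 0.0737, against 0.0207 and 0.025 in non-cycling cDC1. Libraries shared 6 barcodes, of which 1 belonged to a member.

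Cycling cells made up 12.78% of cDC1 in L-cDC (29 of 227, exact Clopper-Pearson 95% interval 8.73 to 17.8) and 18.94% in M-cDC (154 of 813, 16.3 to 21.8). The intervals overlap between 16.3 and 17.8. Of all cells kept, cycling cDC1 were 0.71% in L-cDC (0.476 to 1.02) and 2.63% in M-cDC (2.24 to 3.08), and the cDC1 themselves were 5.56% of L-cDC and 13.9% of M-cDC. At least 2 UMIs of Mki67 and Top2a were also found in 3.32% of 2323 mature cells of L-cDC and 4.27% of 2809 of M-cDC. This wider mature class, which should hold few dividing cells, had no limit on Mki67, Top2a, Xcr1 or Clec9a. Among its cells with no Xcr1 or Clec9a, the shares were 3.11% (66 of 2122) and 3.49% (83 of 2377). The 2323 and 2809 mature cells had median depths of 8917 and 7682 UMIs, against 16259 and 14639 UMIs in cDC1. With each cell thinned to 5000 UMIs before the choice, 10 of 180 cDC1 of L-cDC cycled (5.56%, 2.7 to 9.98) and 64 of 670 of M-cDC (9.55%, 7.43 to 12), against 1.137% and 1.252% of mature cells. Of cells with no UMI of Xcr1, Clec9a, Cd79a or Nkg7 and under 3 of Ccr7 and of Fscn1, not all shown to be dendritic cells, 6.14% in L-cDC (4.29 to 8.47) and 10.9% in M-cDC (9.35 to 12.6) held 2 or more UMIs of Mki67 and Top2a. All these shares describe cells that came through a CD11c enrichment and a sort.

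Cycling cDC1 held more UMIs and genes per cell than non-cycling cDC1. The median cell held 23406 UMIs and 4018 genes in cycling cDC1 of L-cDC, against 15835 UMIs and 3108 genes in non-cycling cDC1. In M-cDC the medians were 20100 UMIs and 3936 genes in cycling cDC1, against 13843.5 UMIs and 2912.5 genes. The ratio of median UMIs was 1.48-fold in L-cDC and 1.45-fold in M-cDC. The rule asks for a fixed number of UMIs, and the part of depth in the choice of cells was not tested; this depth gap stands beside every comparison below. Mitochondrial UMIs were 3.05% of the total in the cycling cells of both libraries, against 3.01% and 3.02% in non-cycling cells.

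S phase and G2/M phase transcripts spread the members over a wide range, as plotted for single cells. The S phase list (42 genes such as the MCM helicase and ribonucleotide reductase) and the G2/M list (52 genes such as the cyclins B and the spindle kinesins) hold neither Mki67 nor Top2a. The median cycling cDC1 had 29.1 S phase UMIs per 10000 UMIs in L-cDC and 29.9 in M-cDC, against 3.71 and 3.62 in non-cycling cDC1. G2/M UMIs stood at 56.5 and 58.3 per 10000 in cycling cDC1, against 7.8 and 8.87 in non-cycling cDC1. No non-cycling cell of 157 in L-cDC reached the cycling median of either list, and in M-cDC 5 of 544 did for S phase and 1 of 544 for G2/M. Among the cycling cells, 9 of 29 of L-cDC (31%, exact 95% interval 15.3 to 50.8) and 49 of 154 of M-cDC (31.8%, 24.6 to 39.8) held more S phase than G2/M UMIs. The lean is a cut on a range and not a type of cell: in 4 of 29 and 27 of 154 members the smaller of both sums was at least 80% of the larger. With each cell thinned to 5000 UMIs the shares were 32.1% and 24.8%. Both lists lay above the 95th percentile of non-cycling cDC1 in 21 of 29 cycling cells of L-cDC and 101 of 154 of M-cDC, and only G2/M did in 4 and 33.

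**Figure D1:**
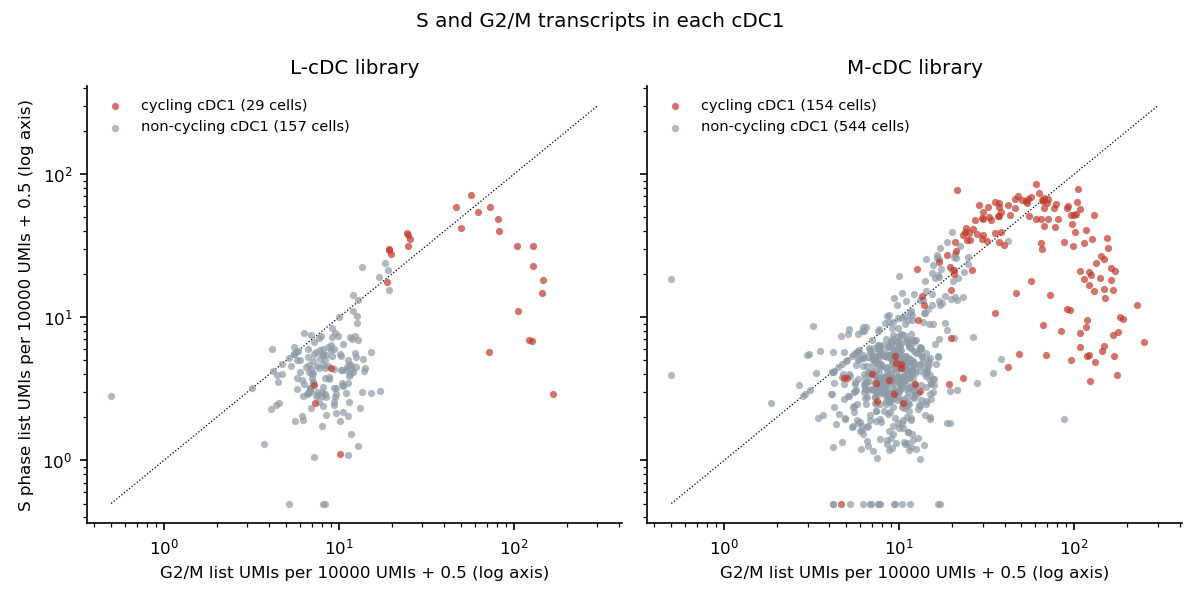
Each point is 1 cDC1, with its G2/M list UMIs per 10000 UMIs (x axis, log scale after adding 0.5) and its S phase list UMIs per 10000 UMIs (y axis, log scale after adding 0.5), cycling cells in red and non-cycling cells in grey, L-cDC on the left and M-cDC on the right. Cycling cells run from the grey cloud along the dotted line of equal values and then down at high G2/M levels, and 4 of 29 and 18 of 154 lie within the grey cloud, below the 95th percentile of both lists.

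Members that lay below the 95th percentile of both lists numbered 4 of 29 in L-cDC (13.8%, 3.89 to 31.7) and 18 of 154 in M-cDC (11.7%, 7.08 to 17.8). They were mostly cells at the edge of the rule: in L-cDC they were 4 of 6 members with exactly 2 UMIs of Mki67 and Top2a, and in M-cDC 13 of 30, against 0 of 9 and 5 of 59 with 3 to 9 UMIs and 0 of 14 and 0 of 65 with 10 or more. Just outside the rule, with 1 such UMI, 18 of 27 cDC1 of L-cDC and 61 of 86 of M-cDC were below both percentiles. The summed S phase level was 1003.2 CPM just inside and 1065.7 CPM just outside in L-cDC, and 1436 CPM just inside and 994 CPM just outside in M-cDC. The summed G2/M level was 1190.7 CPM just inside and 1618.1 CPM just outside in L-cDC, and 2715.8 CPM just inside and 1616.3 CPM just outside in M-cDC. On the cDC1 side of the rule, 2 cells of L-cDC and 5 of M-cDC were members with exactly 2 UMIs of Xcr1 and Clec9a. These members had 19413.4 and 19568.3 CPM of other cDC1 markers. Cells with 1 such UMI, left out by the rule, had 19365.7 and 8087.5 CPM. Cst3, which made up most of this sum over all members, was not set apart here.

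Members that held more S phase than G2/M list UMIs are called S-leaning, and the rest, with 1 tie in M-cDC, G2/M-leaning. Cells leaning to S phase held more of the licensing genes: Mcm3, an MCM helicase subunit outside both phase lists, was at 340 CPM in S-leaning and 75.2 CPM in G2/M-leaning cells of L-cDC, and at 264 CPM in S-leaning and 108 CPM in G2/M-leaning cells of M-cDC. Cdc6, which loads the helicase and is in the S phase list, was at 48.6 CPM in S-leaning and 28.2 CPM in G2/M-leaning cells of L-cDC (log2 ratio 0.78, -0.59 to 2.12), and at 72.3 CPM in S-leaning and 16.8 CPM in G2/M-leaning cells of M-cDC (2.11, 1.5 to 2.74). Ube2c, the ubiquitin-conjugating enzyme of the anaphase promoting complex and a member of the G2/M list, was at 0 CPM in S-leaning and 336 CPM in G2/M-leaning cells of L-cDC, and at 8.76 CPM in S-leaning and 390 CPM in G2/M-leaning cells of M-cDC. The sum of replication-dependent histones was also lower in S-leaning cells, at 801 CPM in S-leaning and 7918.8 CPM in G2/M-leaning cells of L-cDC, and at 1033.3 CPM in S-leaning and 6728.4 CPM in G2/M-leaning cells of M-cDC. Not every S phase list gene followed the lean. For Rrm2 the log2 ratios of S-leaning over G2/M-leaning cells were -0.82 (-1.79 to 0.06) in L-cDC and -0.29 (-0.65 to 0.06) in M-cDC. For Tyms they were -0.16 (-0.88 to 0.53) and 0.21 (-0.08 to 0.48). The names refer to the list sums alone and do not place a cell in a phase. Cdc6, Rrm2, Tyms and Ube2c helped set the lean, while Mcm3, the histones and the cDC1 genes did not enter it. Among cDC1 genes, Xcr1 was at 398 CPM in S-leaning and 378 CPM in G2/M-leaning cells of L-cDC and at 395 CPM in S-leaning and 417 CPM in G2/M-leaning cells of M-cDC, and Irf8 was at 1461.5 CPM in S-leaning and 1558.4 CPM in G2/M-leaning cells of L-cDC and 1623.4 CPM in S-leaning and 1701 CPM in G2/M-leaning cells of M-cDC. Others had an interval without 0 in 1 library only: Apol7c, an apolipoprotein L family gene of cDC1, was at 34 CPM in S-leaning and 113 CPM in G2/M-leaning cells of L-cDC (log2 ratio -1.73, -3.12 to -0.58), and at 96.3 CPM in S-leaning and 85.8 CPM in G2/M-leaning cells of M-cDC (0.17, -0.22 to 0.54). For Naaa, a lysosomal amidase, the log2 ratios were -0.41 (-0.69 to -0.13) in L-cDC and -0.02 (-0.15 to 0.10) in M-cDC, and for Cd8a -0.27 (-0.81 to 0.25) and -0.44 (-0.74 to -0.14). Cd8a had the same sign in both libraries, and its L-cDC interval held the M-cDC value. Ppt1, a lysosomal thioesterase, was lower in S-leaning cells of both, at -0.35 (-0.61 to -0.09) and -0.12 (-0.24 to -0.0016). The 13 genes of MHC class II and its loading summed to 37470.3 CPM in S-leaning and 38122.7 CPM in G2/M-leaning cells of L-cDC, and 35016.5 CPM in S-leaning and 38591 CPM in G2/M-leaning cells of M-cDC.

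Levels also followed the number of Mki67 and Top2a UMIs in a cell, as plotted by that number. Members with 20 or more such UMIs had a median of 127 G2/M list UMIs per 10000 in L-cDC (7 cells) and 113 in M-cDC (48 cells), against 46.2 and 37.8 in members with 3 to 9. Their replication-dependent histone UMIs were at 117 and 103 per 10000, against 15.2 and 7.47 in members with 3 to 9. S phase UMIs peaked in members with 10 to 19, at 37.4 and 51.6 per 10000. The cDC1 markers stood at 241 and 209 per 10000 in members with 20 or more and at 249 and 278 in cDC1 with none. These levels are sums in which Cst3, most of the sum over all members, was not set apart.

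**Figure D2:**
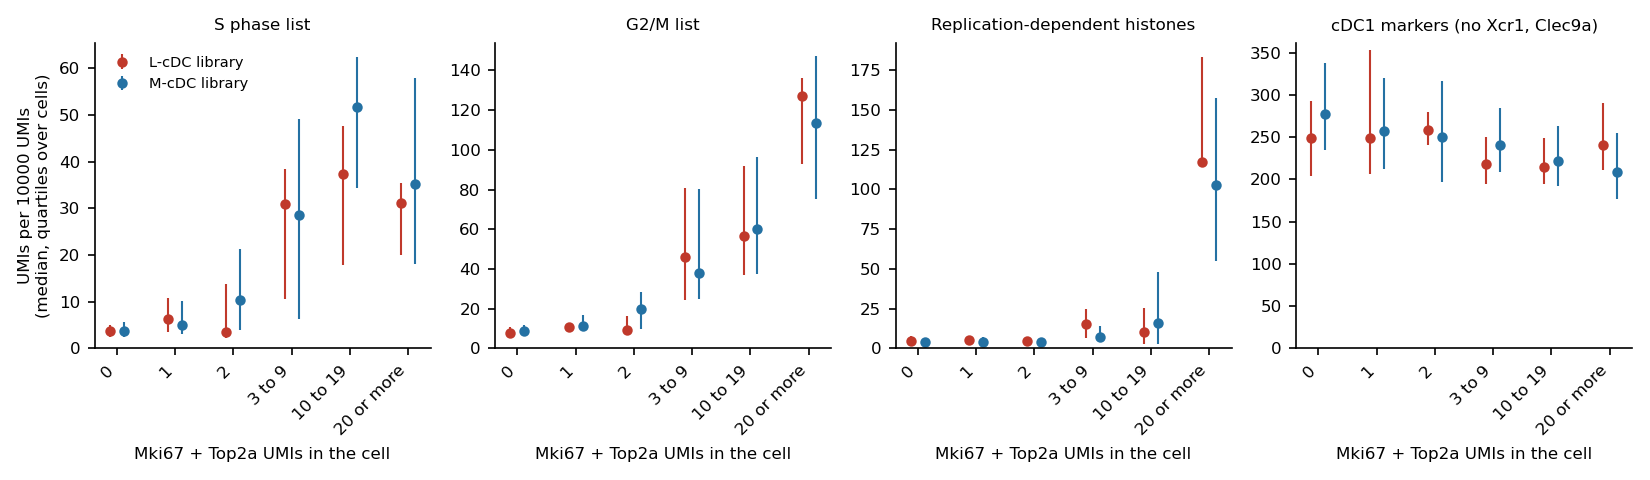
UMIs of 4 gene lists per 10000 UMIs of a cell (y axes, from 0) by the number of Mki67 and Top2a UMIs in the cDC1 (x axes), with the median over cells as a point and the quartiles as bars, L-cDC in red and M-cDC in blue. G2/M and histone levels are highest at 20 or more. The cDC1 marker sum, mostly Cst3 in cycling cells, lies between 209 and 278 per 10000 at every number of UMIs.

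Cycling and non-cycling cDC1 were then compared gene by gene. A gene was considered if it reached 20 CPM in the higher class and 50 UMIs over both classes in each library, and 4732 genes were. Of these, 295 (6.23%) were past 2-fold the same way in both libraries: 250 (5.28%) were at least 2-fold higher in cycling cDC1 and 45 (0.951%) at least 2-fold lower. The rule chose the cells on 2 cell cycle genes, so these counts and the levels below describe the members and carry no test. Of the 250 higher genes, 116 belonged to the cell cycle lists, which had 158 considered genes, and none of the 45 lower genes did. The ratios of the libraries had a correlation of 0.87 across the 4732 genes and of 0.78 across the 4574 outside the cell cycle lists; the libraries share no cells, and genes are not independent replicates. Cell cycle list genes took 3.68% of all UMIs in cycling cDC1 of L-cDC and 3.89% in those of M-cDC, against 0.814% and 0.872% in non-cycling cDC1. Of all 4732 considered genes, 2388 were above 0 in both libraries and 1417 below 0 in both. The median log2 ratio of all considered genes was 0.14 in both libraries. With ratios scaled to that median, 196 genes were higher and 75 lower.

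**Figure D3:**
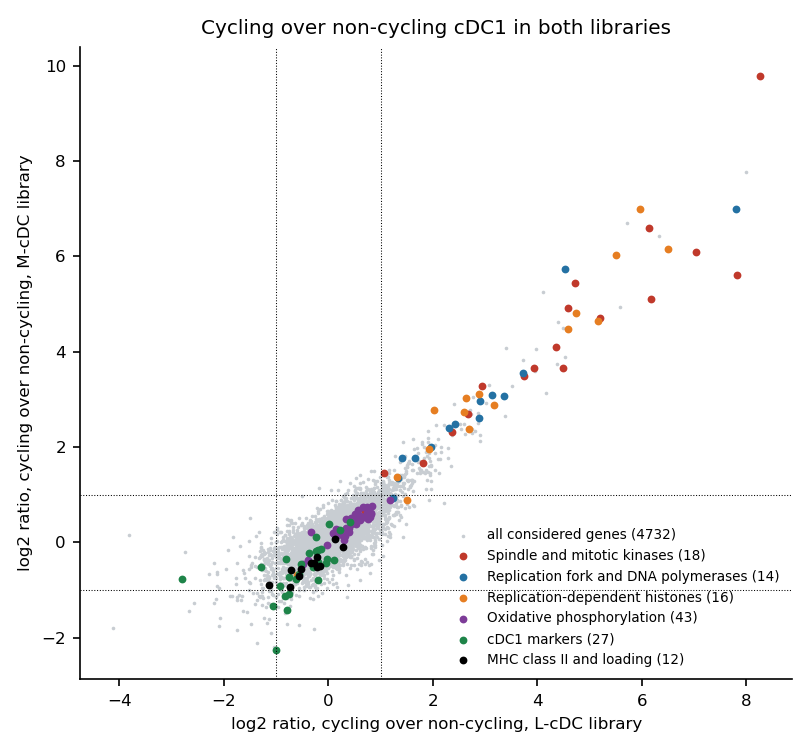
Each point is 1 of 4732 considered genes, with its log2 ratio of cycling over non-cycling cDC1 in L-cDC (x axis) and in M-cDC (y axis), genes of 6 lists in colour and dotted lines at 2-fold. Most spindle, replication fork and histone genes lie in the upper right (15 of 16 histones are above 0 in both libraries), 39 of 43 oxidative phosphorylation genes lie above 0 in both, and cDC1 and MHC class II genes lie mostly below 0. Of all 4732 genes, 2388 lie above 0 in both and 1417 below 0 in both.

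Licensing and replication genes were higher as a group. Of 24 genes of the pre-replication complex and helicase, 10 were considered and 9 were at least 2-fold higher in both libraries (median log2 ratio 2.53 in L-cDC and 2.35 in M-cDC). A cell cycle gene usually passed the minimum through the cycling class, so such counts leave out the members too low to judge. Mcm7 stood at 125 CPM in cycling and 10.9 CPM in non-cycling cDC1 of L-cDC, and at 144 CPM in cycling and 14.7 CPM in non-cycling cDC1 of M-cDC, log2 ratios of 3.52 (counting interval 2.87 to 4.2) and 3.29 (2.99 to 3.6). Of 28 replication fork genes, 13 of 14 considered were higher. Pclaf, which binds the sliding clamp PCNA, was among the most abundant, at 542 CPM in cycling and 2.43 CPM in non-cycling cDC1 of L-cDC and at 587 CPM in cycling and 4.63 CPM in non-cycling cDC1 of M-cDC. At least 1 UMI of Pclaf was in 79.3% of cycling cells of L-cDC and 79.9% of M-cDC, against 3.82% and 5.33% of non-cycling cells. In mature cells, which like the non-cycling cells were chosen to hold no Mki67 or Top2a, it was in 1.32% and 0.802%. Thinned to 5000 UMIs, the shares were 57.1% and 66.7% of cycling, 2.58% and 2.05% of non-cycling, and 0.505% and 0.436% of mature cells. Lig1, the ligase that joins Okazaki fragments, was at 160 CPM in cycling and 12.2 CPM in non-cycling cDC1 of L-cDC and at 151 CPM in cycling and 13 CPM in non-cycling cDC1 of M-cDC. Among nucleotide synthesis genes, 12 of 17 considered of 31 were higher, led by Rrm2, the small subunit of ribonucleotide reductase, at 103 CPM in cycling and 0.41 CPM in non-cycling cDC1 of L-cDC and at 115 CPM in cycling and 0.53 CPM in non-cycling cDC1 of M-cDC. Tyms, which makes thymidylate, was at 136 CPM in cycling and 13 CPM in non-cycling cDC1 of L-cDC and at 160 CPM in cycling and 9.52 CPM in non-cycling cDC1 of M-cDC.

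Promoters of these genes are shown to set out the letters known from cell cycle genes. The word sets searched on both strands were the E2F site (TTTGGCGC, TTTCCCGC, TTTGCCGC or TTTCGCGC), the CCAAT box (CCAAT) and the cell cycle homology region (TTTGAA or TTCGAA), of which the first is known from genes of S phase, the second from many promoters and the third from genes of G2 and M phase. The 3 printed here are the first of the named replication genes whose window, 250 bases before to 50 after the RefSeq start site (GRCm38.p6), holds an E2F site. Capitals mark the matches of all 3 word sets, and adjoining or overlapping matches run together.
Pclaf, chr9:65890073-65890372, plus strand: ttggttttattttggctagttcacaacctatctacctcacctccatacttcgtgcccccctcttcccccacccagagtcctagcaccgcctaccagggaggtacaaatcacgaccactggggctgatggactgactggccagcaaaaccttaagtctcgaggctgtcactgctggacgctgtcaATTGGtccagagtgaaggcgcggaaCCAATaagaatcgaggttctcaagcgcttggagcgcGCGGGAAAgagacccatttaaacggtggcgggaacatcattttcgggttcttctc
Mcm7, chr5:138171834-138172133, minus strand: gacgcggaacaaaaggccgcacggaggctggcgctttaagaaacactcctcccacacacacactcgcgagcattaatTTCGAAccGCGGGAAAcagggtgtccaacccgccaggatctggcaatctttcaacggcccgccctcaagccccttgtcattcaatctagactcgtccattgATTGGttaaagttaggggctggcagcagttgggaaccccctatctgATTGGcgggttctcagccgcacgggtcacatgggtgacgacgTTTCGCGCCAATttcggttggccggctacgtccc
Mcm3, chr1:20820263-20820562, minus strand: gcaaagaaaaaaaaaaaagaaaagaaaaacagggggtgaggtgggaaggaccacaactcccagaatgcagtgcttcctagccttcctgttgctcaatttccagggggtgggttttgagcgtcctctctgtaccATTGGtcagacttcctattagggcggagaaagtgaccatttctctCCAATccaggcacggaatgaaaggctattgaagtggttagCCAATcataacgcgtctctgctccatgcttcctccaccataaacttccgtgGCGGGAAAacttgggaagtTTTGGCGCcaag
In Pclaf the E2F word starts at position -5 and in Mcm3 at 20 and 39, counted from the start site. Of the 41 higher genes in the S phase, helicase, fork or nucleotide lists and not in the mitosis lists, 33 had a promoter in the table, with 38 start sites, and 11 of these (28.9%) held an E2F site, against 2.27% of all 32851 promoters of the same length. An E2F site was also in 16.6% of the 241 promoters of all higher genes. In the 143 promoters of higher genes in no cell cycle list it was in 13.3%. The cell cycle homology region was in 13.2% of the 38 replication gene windows, against 19.2% of all promoters. All promoters include those of genes too low to be considered here, and the shares over the considered genes were not computed.

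Histone and chromatin genes were higher as well. Of 55 replication-dependent histone genes, 16 were considered and 14 were at least 2-fold higher in both libraries (median log2 ratio 2.79 in L-cDC and 2.96 in M-cDC). Hist1h1b, a linker histone, was at 1102.3 CPM in cycling and 12.2 CPM in non-cycling cDC1 of L-cDC, and at 1430.7 CPM in cycling and 20.1 CPM in non-cycling cDC1 of M-cDC. A single cell gave 25.9% of its UMIs in cycling cDC1 of L-cDC. Hist1h2ap was at 1268.6 CPM in cycling and 53.1 CPM in non-cycling cDC1 of L-cDC and at 621 CPM in cycling and 27.9 CPM in non-cycling cDC1 of M-cDC. These histone genes have near-identical copies, and most of their transcripts lack the poly(A) tail that the library captures, so counts of single members are uncertain. In the chromatin list, 19 of 22 considered of 30 were higher. Hmgb2, a DNA-bending protein, reached 2214.2 CPM in cycling and 143 CPM in non-cycling cDC1 of L-cDC, and 2261.2 CPM in cycling and 186 CPM in non-cycling cDC1 of M-cDC. H2afx, the histone variant of the DNA damage response, was at 314 CPM in cycling and 47.8 CPM in non-cycling cDC1 of L-cDC and at 373 CPM in cycling and 54.3 CPM in non-cycling cDC1 of M-cDC.

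Spindle genes had the highest median ratio of the lists compared. Of 46 spindle and mitotic kinase genes, 18 were considered and 17 were at least 2-fold higher in both libraries (median log2 ratio 4.43 in L-cDC and 3.88 in M-cDC). Nusap1, which bundles spindle microtubules, was at 124 CPM in cycling and 0.41 CPM in non-cycling cDC1 of L-cDC and at 117 CPM in cycling and 0.13 CPM in non-cycling cDC1 of M-cDC, and its non-cycling values rest on 1 UMI in each library. Kif11, the kinesin that pushes spindle poles apart, was at 85.5 CPM in cycling cDC1 of L-cDC and at 0 in non-cycling ones, which is at least 70.4-fold higher at a floor of 3 UMIs, and at 89.6 CPM in cycling and 0.93 CPM in non-cycling cDC1 of M-cDC. Birc5, a subunit of the chromosomal passenger complex, was at 212 CPM in cycling and 1.62 CPM in non-cycling cDC1 of L-cDC and at 270 CPM in cycling and 3.96 CPM in non-cycling cDC1 of M-cDC. Prc1, which organises the midzone of the spindle, was at 91.9 CPM in cycling and 0.41 CPM in non-cycling cDC1 of L-cDC and at 84.3 CPM in cycling and 1.72 CPM in non-cycling cDC1 of M-cDC. Kinetochore genes gave 7 of 10 considered of 40, with Spc24 at 163 CPM in cycling and 2.03 CPM in non-cycling cDC1 of L-cDC and at 181 CPM in cycling and 2.12 CPM in non-cycling cDC1 of M-cDC, and condensin and cohesin genes gave 8 of 16 considered of 22. Stmn1, which destabilises microtubules, was the most abundant of the leading genes, at 819 CPM in cycling and 22.3 CPM in non-cycling cDC1 of L-cDC and at 910 CPM in cycling and 34.8 CPM in non-cycling cDC1 of M-cDC. Of the anaphase promoting complex and its substrates, 3 of 11 considered of 20 were higher, among them Ube2c, at 227 CPM in cycling and 10.1 CPM in non-cycling cDC1 of L-cDC and at 276 CPM in cycling and 12.3 CPM in non-cycling cDC1 of M-cDC.

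The promoters of Kif11, Cenpf (a kinetochore protein) and Prc1 are shown because they are the first of the named mitotic genes that hold both a CCAAT box and a cell cycle homology region, with matches in capitals and windows as above.
Kif11, chr19:37376132-37376431, plus strand: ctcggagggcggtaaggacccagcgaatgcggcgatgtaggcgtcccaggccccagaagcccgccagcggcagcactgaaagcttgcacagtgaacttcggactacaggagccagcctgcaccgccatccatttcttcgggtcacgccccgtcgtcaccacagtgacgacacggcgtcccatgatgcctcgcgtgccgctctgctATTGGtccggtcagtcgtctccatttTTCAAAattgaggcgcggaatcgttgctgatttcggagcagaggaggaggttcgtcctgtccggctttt
Cenpf, chr1:189688037-189688336, minus strand: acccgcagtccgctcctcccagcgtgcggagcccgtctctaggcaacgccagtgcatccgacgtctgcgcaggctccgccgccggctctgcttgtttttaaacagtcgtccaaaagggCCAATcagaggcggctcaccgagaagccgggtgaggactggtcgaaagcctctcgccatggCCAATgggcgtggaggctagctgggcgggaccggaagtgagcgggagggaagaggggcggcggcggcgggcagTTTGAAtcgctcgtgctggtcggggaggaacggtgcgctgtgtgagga
Prc1, chr7:80294201-80294500, plus strand: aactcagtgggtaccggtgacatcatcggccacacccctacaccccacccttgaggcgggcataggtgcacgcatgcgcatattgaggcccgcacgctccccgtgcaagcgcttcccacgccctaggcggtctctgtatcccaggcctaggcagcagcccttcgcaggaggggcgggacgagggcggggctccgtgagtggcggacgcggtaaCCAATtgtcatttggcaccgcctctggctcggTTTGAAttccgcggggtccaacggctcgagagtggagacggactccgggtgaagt
The homology region starts at position -19 in Kif11, 3 in Cenpf and -5 in Prc1, with a CCAAT box starting at -45, -71 and -37. Of the 37 higher genes in the G2/M, spindle or kinetochore lists and not in the S phase lists, 31 had a promoter in the table, with 35 start sites. The homology region was in 62.9% of these windows, against 19.2% of all promoters, and the CCAAT box was in 74.3%, against 37.4%. Both were in 51.4%, against 7.53% of all promoters, and an E2F site was in 8.57%, against 2.27%. Nusap1 and Birc5 hold none of the 3 word sets in their windows. These are matches of letters in windows of genes chosen by their levels, and no test was made of them. Here too, all promoters include those of genes too low to be considered.

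Of 20 cyclins, their kinases and partners, 7 were considered, all 7 were above 0 in both libraries and 5 were at least 2-fold higher (median log2 ratio 1.60 in L-cDC and 1.52 in M-cDC). Cdk1, the mitotic kinase, was at 103 CPM in cycling and 4.86 CPM in non-cycling cDC1 of L-cDC and at 138 CPM in cycling and 5.55 CPM in non-cycling cDC1 of M-cDC. Cks1b and Cks2, small partners of cyclin-dependent kinases, stood at 309 and 198 CPM in cycling cDC1 of L-cDC, against 38.1 and 23.5 CPM in non-cycling ones. Cdk4, the partner of cyclins D, was at 149 CPM in cycling and 49 CPM in non-cycling cDC1 of L-cDC and at 179 CPM in cycling and 62.3 CPM in non-cycling cDC1 of M-cDC. Cyclin D1 (Ccnd1) was already at 197 CPM in non-cycling cDC1 of L-cDC, against 274 CPM in cycling ones, and at 268 CPM in cycling and 216 CPM in non-cycling cDC1 of M-cDC, log2 ratios of 0.48 (0.22 to 0.73) and 0.31 (0.19 to 0.44). The cyclins of later phases had too few UMIs in L-cDC to be considered. Their levels in cycling and non-cycling cDC1 of M-cDC were 75.2 and 0.66 CPM for Ccna2, 53.9 and 0.66 CPM for Ccnb1, 83.7 and 5.68 CPM for Ccnb2, and 41.2 and 0.93 CPM for Ccne2. Among inhibitors and quiescence genes, 0 of 8 considered of 20 were past 2-fold either way in both libraries, and the median log2 ratio was -0.61 in L-cDC and -0.42 in M-cDC. Btg2, an antiproliferative gene, was at 242 CPM in cycling and 580 CPM in non-cycling cDC1 of L-cDC and at 333 CPM in cycling and 652 CPM in non-cycling cDC1 of M-cDC. Cdkn2d, the p19 inhibitor of CDK4, went the other way, at 41.2 CPM in cycling and 7.29 CPM in non-cycling cDC1 of L-cDC and at 51 CPM in cycling and 8.99 CPM in non-cycling cDC1 of M-cDC, but was under the UMI minimum. Of the transcription factors, E2f1 was at 30.1 CPM in cycling and 6.48 CPM in non-cycling cDC1 of L-cDC and at 30.1 CPM in cycling and 7.53 CPM in non-cycling cDC1 of M-cDC, also under the minimum. Myc was at 28.5 CPM in cycling and 24.3 CPM in non-cycling cDC1 of L-cDC and at 30.4 CPM in cycling and 23.7 CPM in non-cycling cDC1 of M-cDC, a difference within counting error, and Mycn was at 0 in all 4 classes.

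**Figure D4:**
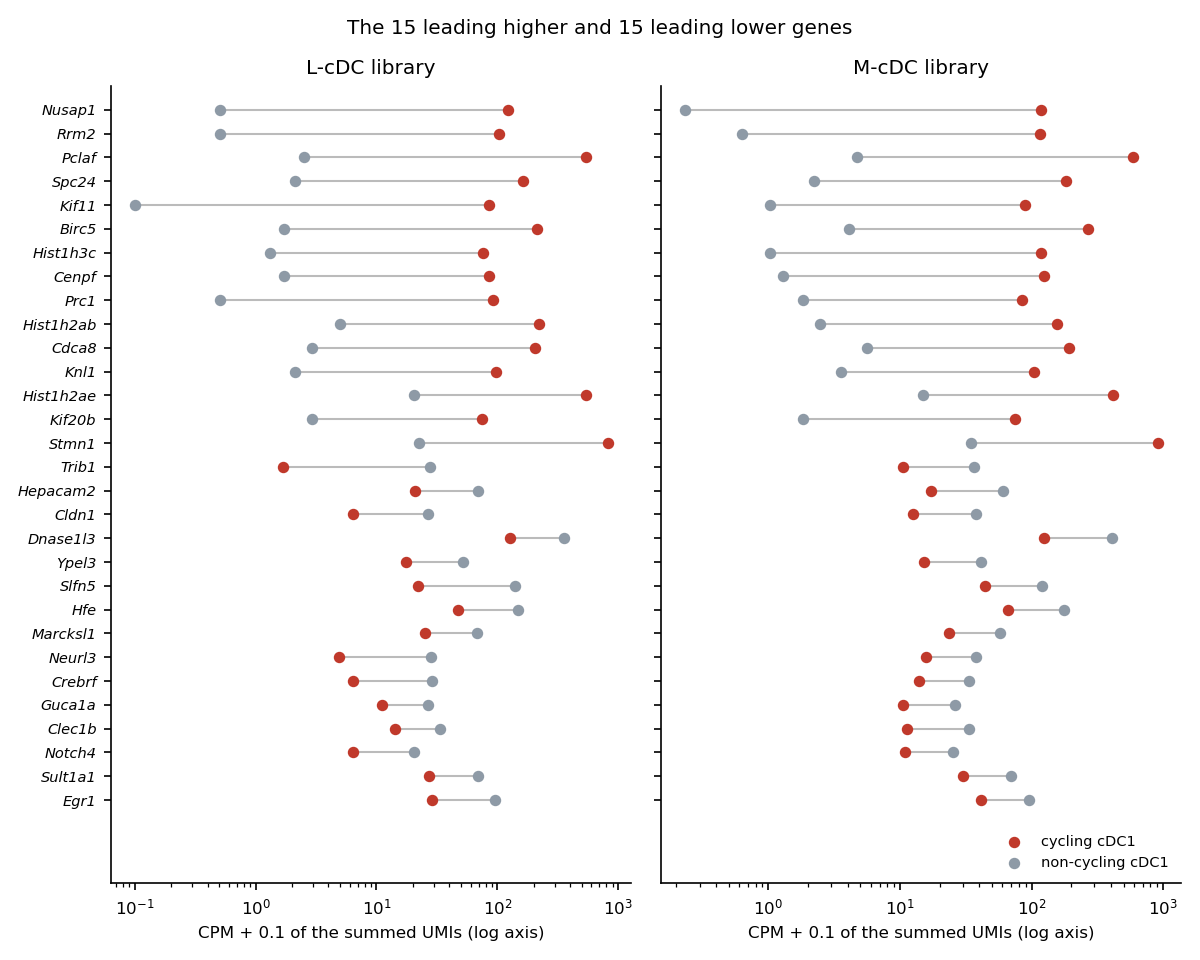
CPM of the 15 leading higher and 15 leading lower genes (rows) in cycling cDC1 (red) and non-cycling cDC1 (grey), on a log axis after adding 0.1, L-cDC on the left and M-cDC on the right. Higher genes lie at 74.4 to 910 CPM in cycling cDC1, against 0 to 34.8 CPM in non-cycling cDC1, and in every lower gene the cycling point lies left of the non-cycling one.

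Genes of growth stood higher in the cycling cells, by less. Of 28 ribosome biogenesis genes, 22 were considered and 9 were at least 2-fold higher in both libraries (median log2 ratio 0.95 in L-cDC and 0.75 in M-cDC). Nop56, a core protein of the particles that methylate ribosomal RNA, was at 151 CPM in cycling and 38.9 CPM in non-cycling cDC1 of L-cDC and at 139 CPM in cycling and 51.9 CPM in non-cycling cDC1 of M-cDC. Ncl (nucleolin) was at 843 CPM in cycling and 327 CPM in non-cycling cDC1 of L-cDC and at 762 CPM in cycling and 335 CPM in non-cycling cDC1 of M-cDC. Glycolysis gave 2 of 12 considered of 20, Tpi1 and Gapdh, with Gapdh at 1083.3 CPM in cycling and 498 CPM in non-cycling cDC1 of L-cDC and at 1188.1 CPM in cycling and 580 CPM in non-cycling cDC1 of M-cDC. No member of the 43 oxidative phosphorylation genes passed 2-fold, yet 39 were above 0 in both libraries and their median log2 ratio was 0.47 in L-cDC and 0.46 in M-cDC, against 0.14 over all genes. Over all genes, 2388 of 4732 were above 0 in both. For the 24 proteasome genes the count was 0, with 23 above 0 in both libraries and medians of 0.52 and 0.59. Ribosomal protein genes took a smaller share of UMIs in cycling cDC1, at 26.2% in L-cDC and 24.8% in M-cDC, against 31.2% and 28.2% in non-cycling cDC1. Outside the cell cycle lists 134 genes were higher. Among them, and named after their values were seen, Ran, the GTPase of nuclear transport and spindle assembly, was at 798 CPM in cycling and 210 CPM in non-cycling cDC1 of L-cDC and at 869 CPM in cycling and 256 CPM in non-cycling cDC1 of M-cDC, and Ptma, a nuclear chaperone of histones, was at 5270.9 CPM in cycling and 1745.8 CPM in non-cycling cDC1 of L-cDC and at 5904.5 CPM in cycling and 1903 CPM in non-cycling cDC1 of M-cDC.

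Most genes of the cDC1 lineage were lower in the cycling cells, by less than 2-fold. Members needed at least 2 UMIs of Xcr1 and Clec9a, and the shallower comparison cells at least 3. These minima ask for a higher level per UMI in the comparison cells, and their part in the ratios was not tested. Of 31 cDC1 markers, 27 were considered, 22 were below 0 in both libraries and 2 were at least 2-fold lower, with a median log2 ratio of -0.37 in L-cDC and -0.45 in M-cDC. Over all considered genes, 1417 of 4732 were below 0 in both. Itgae, the CD103 integrin chain, was at 22.2 CPM in cycling and 44.6 CPM in non-cycling cDC1 of L-cDC and at 12.1 CPM in cycling and 58.2 CPM in non-cycling cDC1 of M-cDC, log2 ratios of -1.01 (-1.93 to -0.20) and -2.27 (-2.79 to -1.78). Tlr11, a sensor of parasite profilin in mice, was at 33.3 CPM in cycling and 68.9 CPM in non-cycling cDC1 of L-cDC and at 31.1 CPM in cycling and 77.9 CPM in non-cycling cDC1 of M-cDC. Both lay close to 2-fold in L-cDC and were under it there with each cell thinned to 5000 UMIs (log2 ratios of -0.99 for Itgae and -0.20 for Tlr11), and Tlr11 was under it in M-cDC as well (-0.80). Cadm1, an adhesion molecule of cDC1, was at 111 CPM in cycling and 193 CPM in non-cycling cDC1 of L-cDC and at 83.4 CPM in cycling and 224 CPM in non-cycling cDC1 of M-cDC. The lineage factors Irf8, Id2 and Batf3 differed little: log2 ratios were -0.24 (-0.34 to -0.13) and -0.18 (-0.23 to -0.14) for Irf8, -0.14 and -0.14 for Id2, and 0.23 (-0.03 to 0.49) and 0.27 (0.15 to 0.38) for Batf3. The transcription factors Bcl6 and Zbtb46 lay lower. Bcl6 was at 23.8 CPM in cycling and 42.1 CPM in non-cycling cDC1 of L-cDC, and at 29.4 and 45.6 CPM in those of M-cDC. Zbtb46 was at 26.9 and 46.6 CPM in L-cDC, and at 39.2 and 48.8 CPM in M-cDC. Over the alternative settings, the log2 ratio of Zbtb46 in M-cDC ranged from -0.49 to 0.20.

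MHC class II and its loading genes lay lower too, with 0 of 12 considered past 2-fold, 10 below 0 in both libraries and medians of -0.30 in L-cDC and -0.52 in M-cDC. Below 0 in both were 1417 of all 4732 considered genes. H2-Eb1, a class II beta chain, was at 4914.5 CPM in cycling and 7285.9 CPM in non-cycling cDC1 of L-cDC and at 4823.9 CPM in cycling and 7922.2 CPM in non-cycling cDC1 of M-cDC. H2-Oa and H2-Ob, which restrain peptide loading, were at 158 and 61.8 CPM in cycling cDC1 of L-cDC, against 263 and 135 CPM in non-cycling ones, and at 143 and 69.6 CPM in cycling cDC1 of M-cDC, against 273 and 129 CPM in non-cycling ones. The 17 considered genes of MHC class I and cross-presentation had medians of 0.12 in L-cDC and 0.00 in M-cDC, which lie below that of all genes. All 8 considered genes of Toll-like receptors and their signalling were below 0 in both libraries, 3 of them receptors (Tlr3, Tlr11 and Tlr12), and 1 was past 2-fold (Tlr11).

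The 45 lower genes were led by Trib1, Hepacam2, Cldn1 and Dnase1l3. Trib1, a pseudokinase that steers protein degradation, was at 1.58 CPM in cycling cDC1 of L-cDC, a single UMI, against 27.6 CPM in non-cycling cDC1, and at 10.5 CPM in cycling and 36.6 CPM in non-cycling cDC1 of M-cDC. Dnase1l3, a secreted nuclease of dendritic cells and macrophages, was at 127 CPM in cycling and 355 CPM in non-cycling cDC1 of L-cDC and at 125 CPM in cycling and 410 CPM in non-cycling cDC1 of M-cDC, log2 ratios of -1.48 (-1.83 to -1.15) and -1.72 (-1.88 to -1.57). It was found in 55.2% of cycling and 84.7% of non-cycling cDC1 of L-cDC and in 57.1% of cycling and 82.7% of non-cycling cDC1 of M-cDC, although the cycling cells were deeper, against 44.5% of mature cells of L-cDC and 53.7% of those of M-cDC. Thinned to 5000 UMIs, it was found in 25% of cycling and 63.2% of non-cycling cDC1 of L-cDC and in 33.3% of cycling and 69.7% of non-cycling cDC1 of M-cDC. Hfe, which regulates iron uptake, was at 47.5 CPM in cycling and 148 CPM in non-cycling cDC1 of L-cDC and at 65.7 CPM in cycling and 177 CPM in non-cycling cDC1 of M-cDC. Slfn5, of the Schlafen family of interferon-induced genes, was at 22.2 CPM in cycling and 141 CPM in non-cycling cDC1 of L-cDC and at 44.5 CPM in cycling and 120 CPM in non-cycling cDC1 of M-cDC. Egr1, an immediate early gene, was at 28.5 CPM in cycling and 95.2 CPM in non-cycling cDC1 of L-cDC and at 41.5 CPM in cycling and 95.8 CPM in non-cycling cDC1 of M-cDC. Set against the deeper non-cycling cells alone (44 of L-cDC and 149 of M-cDC, with median depths of 20056.5 and 18084 UMIs), 26 of the 45 were still considered, all 26 were below 0 in both libraries and 13 were past 2-fold. That alternative was chosen after seeing the data. It reused the same cycling cells and a part of the same non-cycling cells, so the signs of the 26 are no separate support. The cDC1 markers then had medians of -0.35 and -0.45.

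**Figure D5:**
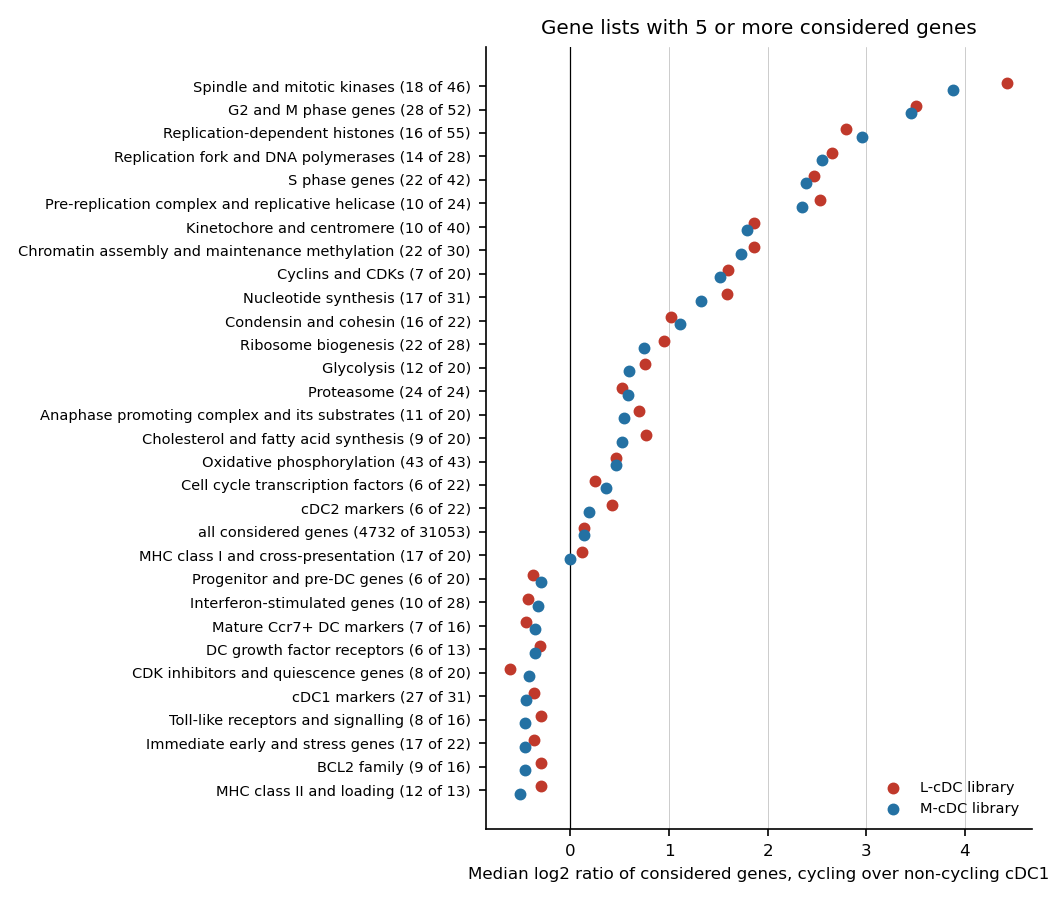
Median log2 ratio of cycling over non-cycling cDC1 (x axis) for gene lists with at least 5 considered genes (rows, with the number considered of those listed), L-cDC in red and M-cDC in blue. Spindle genes have the highest medians (4.43 and 3.88) and MHC class II, BCL2 family, immediate early, Toll-like receptor and signalling, and cDC1 marker genes lie below 0 in both libraries.

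Few genes differed by 2-fold between cycling cDC1 of the 2 libraries. Of 5244 genes considered between them, 16 (0.305%) were at least 2-fold higher in L-cDC and 84 (1.6%) at least 2-fold lower, and over all of them the log2 ratio had a median of -0.08. The L-cDC sum of 631392 UMIs came from 29 cells and the M-cDC sum of 3059381 from 154, so a low gene in L-cDC rests on a few UMIs. Of the histone list, 4 of 30 considered genes were past 2-fold higher in L-cDC (Hist1h2ap, Hist1h3d, Hist1h3i and Hist1h4c), and the median log2 ratio was 0.55, against 0.28 in non-cycling cDC1. Hist1h2ap was at 1268.6 CPM in cycling cDC1 of L-cDC and 621 CPM in those of M-cDC, a log2 ratio of 1.03 (0.91 to 1.15), and its ratio in non-cycling cDC1 was 0.93 (0.60 to 1.25). It ranged from 0.87 to 1.18 over the alternatives. Hist1h1b went the other way, at 1102.3 CPM in cycling cDC1 of L-cDC and 1430.7 CPM in those of M-cDC (-0.38, -0.49 to -0.26). With the top cell of each gene left out, 2 genes were 2-fold higher in L-cDC and 208 lower, a setting that takes away more of the smaller library.

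Other genes past 2-fold rested on few UMIs, and some genes of the fixed set that were under 2-fold are given after them. Tpm2, a tropomyosin, was at 34.8 CPM in cycling cDC1 of L-cDC and 13.4 CPM in those of M-cDC (1.38, 0.56 to 2.16). Its ratio in non-cycling cDC1 was 0.64 (-0.07 to 1.32). Casp2, a caspase, had 1 UMI in cycling cDC1 of L-cDC and 63 in those of M-cDC, or 1.58 and 20.6 CPM, and its levels in non-cycling cDC1 were 22.3 and 18.4 CPM. Ifitm2, an interferon-induced membrane protein, had 2 UMIs in L-cDC and 82 in M-cDC, or 3.17 and 26.8 CPM, against 21.1 and 31.1 CPM in non-cycling cDC1. Malt1, of the NF-kappaB pathway, had 7.92 CPM in L-cDC against 28.4 CPM in M-cDC, and 28 CPM against 26.2 CPM in non-cycling cDC1 of the same libraries. Under 2-fold, Orc6, an origin recognition subunit, was at 60.2 CPM in cycling cDC1 of L-cDC and 89.2 CPM in those of M-cDC (-0.57, -1.10 to -0.07). The difference was also present in non-cycling cDC1, with a log2 ratio of -1.03 (-1.75 to -0.38). Cdkn1a, the p21 inhibitor, was under the minimum of 20 CPM, with 12.7 CPM in L-cDC against 19 CPM in M-cDC. Cdkn2c, the p18 inhibitor, was past 2-fold, with 19 CPM in L-cDC against 41.5 CPM in M-cDC (-1.13, -2.12 to -0.27). In non-cycling cDC1 the log2 ratios were -0.86 (-1.33 to -0.41) for Cdkn1a and 0.03 (-0.64 to 0.66) for Cdkn2c. Fabp5, which carries fatty acids, had 63.4 CPM in L-cDC against 40.9 CPM in M-cDC (0.63, 0.08 to 1.16). Its ratio was larger in non-cycling cDC1, at 1.02 (0.60 to 1.43). Il7r, the gene whose history the label records, had 1 UMI in cycling cDC1 of L-cDC and 5 in those of M-cDC. These are 1.58 and 1.63 CPM, against 4.05 and 1.32 CPM in non-cycling cDC1. Gt(ROSA)26Sor, the transcript of the locus with the tdTomato cassette, had 20.6 CPM in L-cDC against 24.8 CPM in M-cDC (-0.27, -1.24 to 0.59). In non-cycling cDC1 its log2 ratio was -0.71 (-1.185 to -0.264).

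Cycling cDC1 were also set against cycling dendritic cells without Xcr1 or Clec9a (29 of L-cDC and 155 of M-cDC, at least 20 UMIs of Cd74). Of 2640 genes considered, 84 (3.18%) were at least 2-fold higher in the cycling cDC1 in both libraries and 159 (6.02%) at least 2-fold lower, a split the rule partly sets through Xcr1 and Clec9a. Irf8 was at 1526.8 CPM in cycling cDC1 and 99 CPM in the other cycling cells of L-cDC and at 1677.8 CPM in cycling cDC1 and 75.1 CPM in the other cycling cells of M-cDC. Naaa, which is also a gene of cDC1, was at 860 CPM in cycling cDC1 and 67.6 CPM in the other cycling cells of L-cDC and at 853 CPM in cycling cDC1 and 62.7 CPM in the other cycling cells of M-cDC. S100a4, a calcium-binding protein, was at 53.9 CPM in cycling cDC1 and 2300.3 CPM in the other cycling cells of L-cDC and at 77.1 CPM in cycling cDC1 and 2065.3 CPM in the other cycling cells of M-cDC, and Sirpa, a cDC2 receptor, was at 11.1 CPM in cycling cDC1 and 135 CPM in the other cycling cells of L-cDC and at 5.56 CPM in cycling cDC1 and 167 CPM in the other cycling cells of M-cDC. The cell cycle genes themselves were lower per UMI in the cycling cDC1. They took 3.68% and 3.89% of UMIs, against 6.53% and 6.19% in the other cycling cells, at median depths of 23406 and 20100 UMIs, against 15501 and 12178. Histone genes gave 10 of 20 considered past 2-fold lower (medians -1.25 in L-cDC and -1.01 in M-cDC) and spindle genes 9 of 31 (-1.08 and -0.91), while S phase genes gave 0 of 29 (-0.41 and -0.52). Ccnd1 was at 274 CPM in cycling cDC1 and 690 CPM in the other cycling cells of L-cDC and at 268 CPM in cycling cDC1 and 840 CPM in the other cycling cells of M-cDC. The same minimum number of Mki67 and Top2a UMIs takes a lower level per UMI in deeper cells, and its part in these ratios was not tested.

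The 31 possible doublets, 7 of L-cDC and 24 of M-cDC, carried the genes of both cell types. Mature dendritic cell markers outside the rule summed to 6632.1 CPM in those of L-cDC and 4909.3 CPM in those of M-cDC, against 294.6 and 253.3 CPM in the other members and 16093.6 and 15955.8 CPM in mature cells. The cDC1 markers summed to 13820.4 and 18288.9 CPM, against 24639.2 and 23415.2 CPM in the other members. In the other members most of this sum was Cst3, which was not set apart in the possible doublets. Scrublet scored above 0.25 in 2 of 7 and 17 of 24 of them, against 159 of 4086 and 265 of 5848 of all cells kept. Their S phase list was at 1254.2 and 1915 CPM and their histones were at 473 and 1931.1 CPM, against 2803.3 and 3165.3 CPM and 5597.2 and 5027.8 CPM in the other members. Median depths were 23077 and 24085 UMIs. In L-cDC a further 3 cells met the rule but for a UMI of Cd79a or Nkg7.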

How the data were processed

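The authors deposited, for each of 2 libraries, a matrix of raw UMI counts per gene and barcode, made with Cell Ranger 6.1.2 per the file headers and against GRCm38 (mm10) per the submitters' processing notes. The deposited counts were used as they are, with 31053 genes. Cells needed at least 500 genes and at most 10% mitochondrial UMIs. The members, the gene lists and the comparisons were chosen with earlier results of these data known. Counts of a class were summed per library and scaled to CPM. Ratios carry exact conditional binomial 95% intervals, shares exact Clopper-Pearson ones, and a class at 0 UMIs was set to a floor of 3. UMIs remove copies made by PCR, and all intervals cover counting error only. Levels per 10000 UMIs, phase lists and thinning to 5000 UMIs per cell used Python 3.11.15, numpy 2.4.6 and scipy 1.17.1, and Scrublet ran in scanpy 1.11.5. No doublet was removed other than by the rule, and no test compared the groups. On simulated data of the same depths, with 4537 genes for the cycling over non-cycling ratio in L-cDC, 4717 in M-cDC and 4942 between the libraries, 95.8%, 95.4% and 95.6% of the intervals held the true ratio, and 40, 0 and 24 unchanged genes passed 2-fold. The simulated counts varied by counting error alone, as the intervals assume, so spread between cells was not part of this check. Kept cells held 38834112 UMIs in L-cDC and 51895647 in M-cDC, with medians of 8699.5 and 7838.5.

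Genes named in the text are the 15 highest and 15 lowest by the smaller ratio of the libraries (12 each between libraries, 10 each against other cycling cells), up to 4 members of each list, and a fixed set, leaving out from the ranked sets genes of the rule, unnamed gene models, sex-linked genes, antigen receptor genes, and those for hemoglobin, ribosomal proteins and mitochondrial transcripts. To be named as leading, a gene needed intervals without 1 and no cell giving over 25% of its UMIs in the higher class. Of 905 listed genes 902 were found. Promoter sequences are RefSeq's and were matched by symbol. Alternatives varied the cell filters, the thresholds of the rule, doublet removal, thinning, the minimum level and the scaling.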

Additional observations from a re-analysis of the deposited data

How the results depend on the processing

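Keeping cells with at least 3 UMIs of Ccr7 or Fscn1 left 25 lower genes (20 of them among the 45) and 29 genes higher in L-cDC than in M-cDC, and turned Marcksl1 to a log2 ratio of 0.22 in L-cDC. Asking for 3 UMIs of Mki67 and Top2a gave a cycling share of 15.25% in M-cDC, and leaving out cells with 2 such UMIs or a shared barcode, added after seeing the data, 15.13%. Thinning cells to 5000 UMIs gave 77 higher and 14 lower genes of 1975 considered and a log2 ratio of 0.058 between libraries for Sypl; thinning before the choice gave shares of 5.556% in L-cDC and 9.552% in M-cDC. A minimum of 50 CPM left 20 lower genes, and 3 higher and 6 lower between libraries; 5 CPM gave 151 lower between libraries. With no minimum, 1471 genes were higher and 151 lower in cycling cells, and 2734 higher and 685 lower in L-cDC. CPM without cell cycle, mitochondrial and ribosomal protein genes gave 127 higher genes, which leaves out the cell cycle genes by construction, and 133 lower between libraries. Scaling to the median ratio gave 75 lower genes and 27 higher in L-cDC, and leaving out the top cell 2 and 208 between libraries. Deeper comparison cells gave 13 lower genes of 3260 considered. For the settings that changed the cells or the scaling, the cause was not tested. Of 840 list medians recomputed, 829 stayed within their spread and 11 moved; of 1958 recomputed ratios of named genes between cycling and non-cycling cells, 1919 stayed on their side of 2-fold, 23 fell under it, 15 passed it and 1 reversed, as did 1 of 404 between libraries. No paired analysis was possible because each group has 1 library. No replicate could be left out for the same reason. The L-cDC side rests on 29 cells and 631392 UMIs, and genes under 50 UMIs over cycling and non-cycling cells of a library were not called.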
